A study of Mus musculus with 9 samples.

Results

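Neutrophils store their antimicrobial proteins in granules, and 7 genes that encode such proteins were followed here in the main olfactory epithelium (MOE) of the mouse. They were taken by name, as the rows of Elane, Mpo, Prtn3, Ctsg, Ngp, Camp and Ltf among the 24421 genes of the raw count table, and all 7 had enough reads to be tested. The tissue came from mice labelled C57BL/6 at postnatal day 14 (P14) of 3 genotypes: wild type (WT), heterozygous (TAAR enhancer 2 +/-, het) and homozygous (TAAR enhancer 2 -/-, homo) for a CRISPR-Cas9 deletion of TAAR enhancer 2, a regulatory element within the cluster of trace amine-associated receptor genes. Each genotype had 3 RNA-seq libraries, numbered 1 to 3. The deletion was made in C57BL/6J zygotes and kept as 1 established line, while the study describes its mouse lines together as being of mixed C57BL/6J and 129 background. WT animals were littermates, both sexes were used, and the labels do not give the sex of each sample. Nothing in the labels ties a replicate number to a litter or a day, so the p-values below measure the spread between these libraries. The whole tissue was extracted, and in such bulk samples fewer cells of a type and less RNA per cell cannot be told apart.

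Granule proteins are made in sequence while neutrophils mature in the bone marrow. Promyelocytes make the contents of primary (azurophil) granules, and myelocytes and metamyelocytes then make those of secondary (specific) granules. Circulating neutrophils have largely stopped transcribing the primary granule genes, so mRNA of these genes is used as a sign of marrow precursors. Lactoferrin, the product of Ltf, is also known as a secretory protein of gland and airway epithelia.

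Library totals ran from 20527992 to 32262005 counts, so that 3 counts corresponded to 0.0928 to 0.147 CPM, the count of a gene relative to the library size as scaled by the TMM method. Taar6, a receptor gene of the cluster, served to check the labels: it stood at 6.27 to 6.62 CPM in WT, at 4.42 to 5.23 in het and at 0.610 to 0.743 in homo. One library stood apart for the genes described here. WT replicate 3 held the highest level of all 7 granule genes, and also of all 12 genes of an inflammatory response list that was chosen after the data were seen. In that list Il1b, encoding the cytokine interleukin-1 beta, reached 306 CPM in WT replicate 3 and 1.14 to 33.6 CPM in the other 8 libraries. For the granule genes, tests of genotype and of number 1 against the others, pair correlations and likeness lists are therefore given with and without WT replicate 3. A second division ran by replicate number, since libraries of number 1 differed from those of numbers 2 and 3 in many genes.

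The 4 primary granule genes encode 3 related serine proteases and a peroxidase. Elane (neutrophil elastase, chr10:79886247-79888215) and Prtn3 (proteinase 3, chr10:79874476-79883174) are neighbours on the + strand of chromosome 10, with 3072 bases between them. Ctsg (cathepsin G) lies at chr14:56099881-56102574 on the - strand and Mpo (myeloperoxidase) at chr11:87793581-87804413 on the + strand. The 3 specific granule genes share chromosome 9. Camp (the cathelicidin antimicrobial peptide, chr9:109847379-109849617, - strand) lies 570129 bases from Ngp (neutrophilic granule protein, chr9:110419747-110423012, + strand), which in turn lies 596258 bases from Ltf (chr9:111019271-111042767, + strand). Positions are those of GENCODE vM21 on GRCm38.

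All 7 genes had a RefSeq promoter window on GRCm38.p6, and the 250 bases before the start are shown for Elane and Prtn3, as the adjacent pair, for Ngp and Camp, as specific granule genes that moved together, and for Ltf, which moved otherwise. These RefSeq starts are not the ends of the GENCODE intervals above: they lie downstream of them by 21 bases in Ltf, 61 in Ngp, 65 in Elane, 161 in Camp and 203 in Mpo, so that the windows take in the first bases of those intervals. In Prtn3 the RefSeq start lies 5191 bases inside the interval, 53 bases downstream of the nearest of 6 GENCODE transcript starts. Capitals mark AGGAAGT, a longer string around the GGAA core recognised by ETS factors such as PU.1, and GCAAT, the end of a C/EBP palindrome. Each was searched on both strands, so that the reverse complement ATTGC is in capitals too.
Elane chr10:79886062-79886311 (+ strand): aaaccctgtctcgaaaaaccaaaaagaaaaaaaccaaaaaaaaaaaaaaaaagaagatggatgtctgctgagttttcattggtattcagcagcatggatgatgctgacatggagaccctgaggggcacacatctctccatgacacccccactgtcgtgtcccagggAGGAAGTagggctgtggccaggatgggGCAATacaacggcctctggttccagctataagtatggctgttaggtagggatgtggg
Prtn3 chr10:79879417-79879666 (+ strand): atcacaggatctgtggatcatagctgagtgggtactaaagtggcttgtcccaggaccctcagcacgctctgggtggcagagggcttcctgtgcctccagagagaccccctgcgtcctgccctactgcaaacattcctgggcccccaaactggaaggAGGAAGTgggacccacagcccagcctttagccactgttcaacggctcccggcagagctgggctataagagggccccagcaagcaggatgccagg
Ngp chr9:110419558-110419807 (+ strand): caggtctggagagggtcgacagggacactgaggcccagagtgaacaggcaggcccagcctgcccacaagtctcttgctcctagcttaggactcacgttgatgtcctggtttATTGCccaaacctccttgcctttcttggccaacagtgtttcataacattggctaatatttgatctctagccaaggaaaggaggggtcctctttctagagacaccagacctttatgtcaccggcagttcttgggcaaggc
Camp chr9:109849457-109849706 (- strand): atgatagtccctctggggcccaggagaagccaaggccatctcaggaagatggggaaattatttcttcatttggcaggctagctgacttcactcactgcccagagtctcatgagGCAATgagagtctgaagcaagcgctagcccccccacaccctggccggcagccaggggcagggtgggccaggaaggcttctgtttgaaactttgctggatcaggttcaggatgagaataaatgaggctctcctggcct
Ltf chr9:111019042-111019291 (+ strand): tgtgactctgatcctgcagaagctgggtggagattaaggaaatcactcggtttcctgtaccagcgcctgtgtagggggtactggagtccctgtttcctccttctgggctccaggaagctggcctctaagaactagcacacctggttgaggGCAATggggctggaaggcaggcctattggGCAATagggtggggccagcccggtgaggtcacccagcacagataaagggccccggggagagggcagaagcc

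AGGAAGT was found in the windows of all 4 primary granule genes and in none of those of the 3 specific granule genes. The split holds for this full string only, since the shorter GGAA also occurs in the windows shown for Ngp, Camp and Ltf. It began 84 bases before the start in Elane, 94 in Prtn3, 206 in Ctsg and 223 in Mpo, each time on the strand of the gene. Of 32851 promoter windows of the same length, 7.69% held it. GCAAT was found in 5 of the 7 windows (Ngp, Camp, Ltf, Elane and Mpo), against 23.1% of all windows, and it occurred at 2 positions in Ltf, 100 and 71 bases before the start. These letters are a description of the windows and were not tested as binding sites.

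Among the primary granule genes, Mpo had the highest mean CPM. It stood at 5.20, 3.49 and 45.3 CPM in WT replicates 1 to 3, at 5.01, 12.5 and 13.9 in het and at 5.21, 11.98 and 8.44 in homo. The 3 libraries of number 1 lay close together in all genotypes, WT replicate 2 was lower still, and WT replicate 3 was 6.63 times the median of the other 8 libraries. Elane stood at 0.392, 0.897 and 8.88 CPM in WT, at 1.18, 2.34 and 2.97 in het and at 1.09, 3.34 and 2.34 in homo. WT replicate 3 was again far above the rest and the genotypes overlapped. The lowest library was WT replicate 1, where Elane rested on 8 counts.

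Ctsg stood at 0.589, 0.649 and 8.73 CPM in WT, at 0.473, 2.34 and 3.56 in het and at 0.589, 2.58 and 1.82 in homo. Its 3 libraries of number 1, with 10 to 13 counts each, lay below the 6 others without overlap, and its excess in WT replicate 3, at 7.07 times the median of the other 8, was the largest among the 7 genes. Prtn3 stood at 4.91, 3.62 and 14.4 CPM in WT, at 5.01, 6.80 and 7.37 in het and at 4.72, 7.497 and 5.58 in homo. Its range was narrower than that of the others: the highest library was 3.99 times the lowest, against 12.95 to 22.6 times for the other 3 primary granule genes. Prtn3 shares 159 of its 1732 exon bases with Plppr3 on the opposite strand, a gene listed under its older symbol Lppr3 with 2455 to 3235 raw counts in every library. Whether reads of that gene entered the Prtn3 values was not tested, and the strand setting of the counting is not given in the sources used here. Mpo likewise shares 512 of 3424 exon bases with the antisense gene Gm11505.

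Of the specific granule genes, Ngp stood at 24.5, 20.2 and 160 CPM in WT, at 26.9, 41.4 and 61.3 in het and at 13.5, 67.8 and 41.3 in homo. Camp stood at 2.26, 1.76 and 17.9 CPM in WT, at 2.84, 5.02 and 6.22 in het and at 1.13, 9.40 and 5.58 in homo. Both genes were highest in WT replicate 3, second in homo replicate 2 and lowest in homo replicate 1, and the count of Ngp per count of Camp stayed between 7.21 and 11.9 in all 9 libraries. Ltf was far more abundant and ordered the libraries differently. It stood at 964, 580 and 2721 CPM in WT, at 821, 292 and 768 in het and at 651, 255 and 155 in homo. WT replicate 3 was again the highest, but next came WT replicate 1 and het replicate 1, and homo replicates 2 and 3, where Ngp was above its median in the first and at it in the second, held the lowest levels of Ltf.

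**Figure D1:**
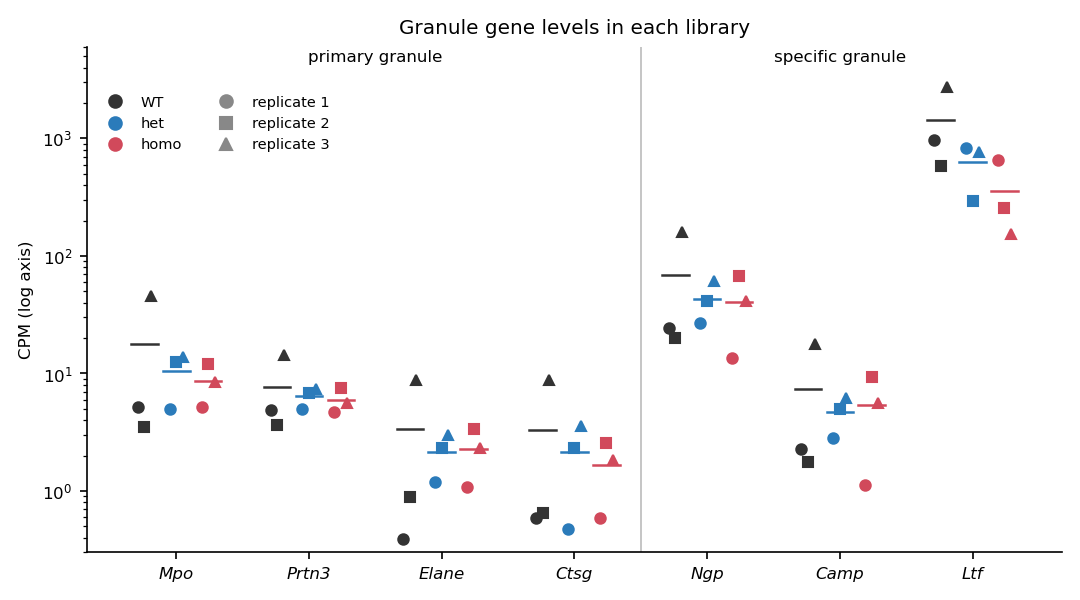
Level of each granule gene in each of the 9 libraries, in CPM on a log axis, with colour for genotype, symbol for replicate number and a short line for the mean of each genotype (n = 3). WT replicate 3 (black triangle) is the highest point for all 7 genes, and the libraries of number 1 (circles) lie low for all genes but Ltf.

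Per kilobase of exon, the median level over the 9 libraries fell in the order Ltf (189 CPM per kb), Ngp (33.8), Camp (6.63), Prtn3 (3.22), Mpo (2.46), Elane (2.38) and Ctsg (1.76). Ltf was above Ngp and Ngp above Camp in 9 of 9 libraries, although Ngp alone ranged from 11.1 to 131 CPM per kb. Camp was above Prtn3 in 8 of 9 libraries. Prtn3 was above Mpo in 8 of 9, Mpo above Elane in 9 of 9 and Elane above Ctsg in 7 of 9, while the ranges of these 4 over libraries overlapped almost wholly (0.399 to 9.03 CPM per kb for Elane and 0.458 to 8.46 for Ctsg). In windows of 50 bases, 99.8% of those in Mpo transcripts and 100% in those of the other 6 genes occurred in no transcript of another gene. Only the transcript strand was searched, so the overlaps of Prtn3 and Mpo with genes on the opposite strand were not counted.

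Whether the enhancer deletion changed these genes was asked with edgeR's quasi-likelihood test over 19775 genes, with Benjamini-Hochberg adjustment and a call at an adjusted p under 0.05 and a fold above 1.5. In homo against WT 0 of 7 granule genes were called, where 0.0202% of all genes tested were called. In het against WT 0 of 7 were called (0% of all genes), and in homo against het 0 of 7 (0.00506%). The test for any genotype difference also called 0 of 7 (0.00506%). At an unadjusted p under 0.05, 1 of 7 passed in homo against WT, where 3.45% of all genes did. The test for any difference also had 1 of 7, against 1.39% of all genes, and the gene was Ltf in both. In the other 2 comparisons 0 of 7 passed. DESeq2 and limma-voom called 0 of 7 in each of these comparisons.

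The WT means rested on WT replicate 3. Ngp averaged 68.3 ± 79.7 CPM (SD, n = 3) in WT, 43.2 ± 17.3 in het and 40.9 ± 27.1 in homo, so that the spread within WT exceeded every difference between means. The fitted log2 fold change of Ngp in homo against WT was -0.74 (SE 0.80), and for Mpo it was -1.07 (SE 0.85), for Ctsg -0.99 (SE 1.05) and for Elane -0.59 (SE 0.93). Without WT replicate 3 these fold changes had the opposite sign, at 0.87 for Ngp, 0.98 for Mpo, 1.42 for Ctsg and 1.75 for Elane, and Camp went from -0.44 to 1.42 and Prtn3 from -0.37 to 0.48. In het against WT the same 6 genes went from between -0.78 and -0.26 to between 0.59 and 1.77. The adjusted p-values by edgeR were 1 for all 7 genes without this library too, so no direction by genotype was established for these 6 genes.

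Within single replicate numbers, each with 1 library per genotype and hence no test, the homo level of Ngp was 55.2% of WT in number 1, 336% in number 2 and 25.8% in number 3. Mpo was at 100.3% of WT in number 1, at 343% in number 2 and at 18.6% in number 3. The comparison between genotypes thus ran in opposite directions in numbers 2 and 3. The numbers were not found to pair WT with homo, so these are values of single libraries.

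Ltf was the exception in sign. It averaged 1422 ± 1142 CPM (SD, n = 3) in WT, 627 ± 292 in het and 354 ± 263 in homo, and homo differed from WT by -2.01 on the log2 scale (SE 0.67; p 0.0171 and adjusted p 1 by edgeR). Set side by side by number, with no pairing shown, the homo libraries stood at 67.5%, 44.0% and 5.69% of WT. Without WT replicate 3 the log2 fold change was -1.13 (SE 0.62; edgeR p 0.0995). WT ranged from 580 to 2721 CPM and homo from 155 to 651, so the groups overlapped, and an exact permutation test of this gene alone gave p = 0.2 (two-sided), where 0.1 is the smallest p that 3 against 3 libraries allow.

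**Figure D2:**
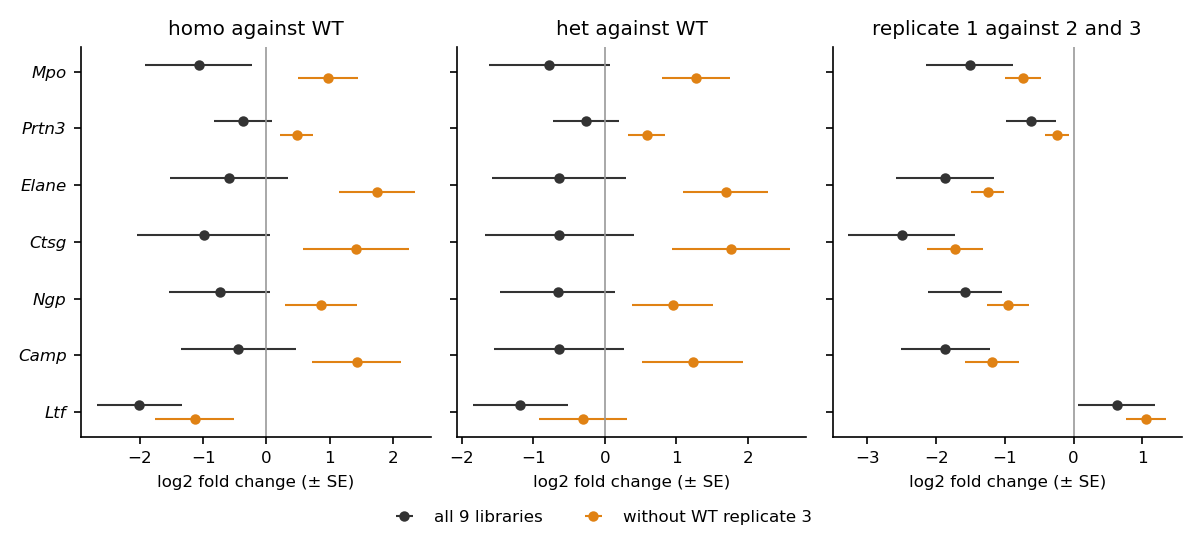
Fitted log2 fold changes (edgeR, error bars ± SE) of the 7 granule genes for homo against WT, het against WT and replicate number 1 against numbers 2 and 3, with all 9 libraries (black) and without WT replicate 3 (orange). In both genotype comparisons 6 genes change sign when that library is left out and Ltf does not, while in the comparison of numbers all 7 keep their sign.

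The larger division among the libraries was by replicate number. Number 1 had been seen to stand apart in earlier results of these data, and its split from numbers 2 and 3 was chosen with that known. The p-values and calls by number, here and for the gene lists below, are therefore a description of these libraries. Over all genes, a test of number with genotype in the model called 20.6% of the 19775, and of the granule genes it called 0 of 7, with 4 of 7 at an unadjusted p under 0.05 (Ngp, Camp, Elane and Ctsg), where 36.3% of all genes were, and an edgeR adjusted p of 0.0501 for Ctsg. DESeq2 called 2 of 7 in that test. When number 1 was set against numbers 2 and 3, 3.52% of all genes were called lower in number 1, and 1 of 7 granule genes was: Ctsg, whose fitted log2 difference was -2.50 (SE 0.78, with an adjusted p of 0.0380 by edgeR). Camp (-1.87, SE 0.64), Elane (-1.87, SE 0.71) and Ngp (-1.58, SE 0.54) had edgeR adjusted p-values of 0.0672, 0.0852 and 0.0674, and Mpo (-1.51, SE 0.63) and Prtn3 (-0.61, SE 0.36) had 0.120 and 0.244. Ltf had the opposite sign (0.63, SE 0.56; edgeR adjusted p 0.445), where 5.42% of all genes were called higher in number 1.

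The number of calls changed with each of the 9 libraries left out in turn. All 6 genes other than Ltf had every library of number 1 below all 4 het and homo libraries of numbers 2 and 3. They also had WT replicate 2 below the other 5 libraries of these numbers. With WT replicates 2 and 3 included, the ranges of number 1 and of numbers 2 and 3 overlapped in each of these genes but Ctsg. The share of all genes in this order was not computed, so the order is a description of these libraries. Without WT replicate 2, 6 of 7 genes were called lower in number 1 (all but Ltf), against 4.36% of all genes. Without WT replicate 3, 4 of 7 were called lower, against 4.78% of all genes, and Ltf was called higher, against 6.53%: Ctsg at -1.73 (edgeR adjusted p 0.00498), Elane at -1.25 (0.00141), Camp at -1.18 (0.0366), Ngp at -0.95 (0.0360) and Ltf at 1.06 (0.0107). When any one of the other 7 libraries was left out, 0 of 7 were called, and Ctsg kept its sign but missed the threshold. By DESeq2 4 of 7 were called with all libraries (Ngp, Camp, Elane and Ctsg) and by limma-voom 0 of 7.

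The 6 genes other than Ltf moved together from library to library. Over the 9 libraries, on log2(CPM + 0.5), Pearson's r was between 0.914 and 0.989 in the 15 pairs among Elane, Mpo, Prtn3, Ctsg, Ngp and Camp, and between 0.123 and 0.399 in the 6 pairs with Ltf. Over the 8 libraries without WT replicate 3 it was between 0.816 and 0.985 in the 15 pairs and between -0.64 and -0.37 in the 6 with Ltf. These coefficients are a description over libraries that share genotypes and replicate numbers. Of 7 pairs of genes tested, Ngp and Camp had r = 0.989 (exact permutation p = 5.51e-06, adjusted 3.86e-05) and Spearman's rho = 0.983 (exact permutation p = 4.96e-05, adjusted 0.000347). Elane and Mpo, from different chromosomes, had r = 0.937 (exact permutation p = 0.000537, adjusted 0.00094; rho = 0.867, p = 0.00451, adjusted 0.0105). The specific granule gene Ngp and the primary granule gene Mpo had r = 0.938 (exact permutation p = 0.000361, adjusted 0.000842; rho = 0.833, p = 0.00827, adjusted 0.0145).

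By Pearson's r, all 3 relations held without the 2 libraries farthest from the median of the first gene, at r = 0.978, 0.955 and 0.939 over 7 libraries. By the same measure they held within the 6 libraries of numbers 2 and 3, which include WT replicate 3. There r was 0.981, 0.981 and 0.970 (exact permutation p = 0.00556, 0.00972 and 0.0125, adjusted 0.0194, 0.0219 and 0.0219). By rank they did not pass within those 6, where Spearman's rho was 0.943, 0.829 and 0.829, with exact permutation p-values of 0.0583, 0.102 and 0.102 after adjustment. The ratio of Mpo to Ngp in counts ranged from 0.173 to 0.386. The ratio of Ltf to Ngp ranged from 3.75 in homo replicate 3 and 3.76 in homo replicate 2 to 48.2 in homo replicate 1, a span of 12.9 times within 1 genotype. The ratio of Prtn3 to Mpo fell to 0.319 in WT replicate 3 from between 0.528 and 1.04 elsewhere.

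**Figure D3:**
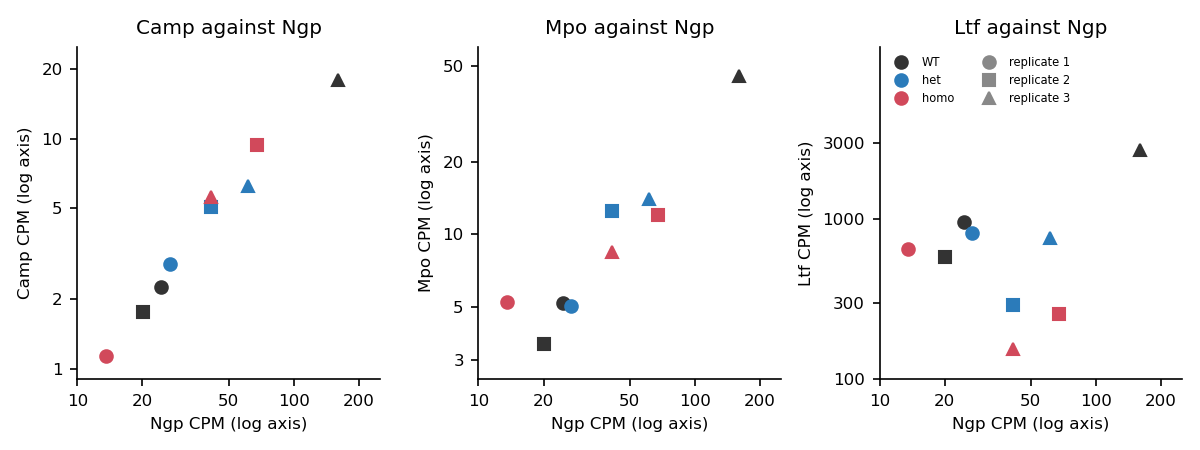
Camp, Mpo and Ltf against Ngp in the 9 libraries, in CPM on log axes, with colour for genotype and symbol for replicate number. Camp and Mpo are high where Ngp is high (r = 0.989 and 0.938), with Mpo level between 3.49 and 5.21 CPM in the 4 libraries lowest in Ngp, while Ltf lies high in WT replicate 3 and otherwise does not rise with Ngp.

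Of the mature neutrophil genes, S100a8 was set against Ngp. S100a8, one chain of the calprotectin complex of the neutrophil cytosol, stood at 6.08, 15.8 and 135 CPM in WT, at 7.24, 18.4 and 30.1 in het and at 3.40, 38.1 and 17.5 in homo. Its correlation with Ngp was r = 0.948 (exact permutation p = 0.000179, adjusted 0.000627; rho = 0.95, p = 0.000353, adjusted 0.00123), and 0.819 without the 2 libraries farthest from the median of Ngp. Of 19 mature neutrophil genes tested, 18 were highest in WT replicate 3. There 18 were at least 2-fold above the median of the other 8 libraries, as were 7 of 7 granule genes. Of all genes with a mean of at least 1 CPM, a limit not set for the lists, 5.21% reached that fold. WT replicate 3 had been singled out by the granule genes themselves, so these counts describe that library and test nothing. The share of all genes highest there was not computed. The excess differed among the mature neutrophil genes, and so did their course over the other libraries. Cd177, a neutrophil surface protein gene, was lowest in homo replicate 3 and het replicate 2 (5.61 and 5.82 CPM). Mmp8, encoding the collagenase of specific granules, was 3.81 times the median of the other libraries in WT replicate 3. S100a9, the partner chain of S100a8, was 8.95 times and Lcn2, encoding lipocalin 2, 76.7 times. The count of Lcn2 per count of Ngp ran from 0.418 in het replicate 2 to 10.7 in WT replicate 3, and the part of other cells in the level of Lcn2 was not tested.

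In the contrast of number 1 with numbers 2 and 3, 9 of the 19 mature neutrophil genes were called lower and 1 higher. Of all genes, 3.52% were called lower and 5.42% higher. The median log2 fold change of the 19 was -2.38 against -0.03 over all genes tested. The 9 included Mmp8 (-2.86, SE 0.49), Chil3 (-2.84, SE 0.49), Retnlg (-2.59, SE 0.52) and the formyl peptide receptor gene Fpr2 (-3.13, SE 1.01). The gene called higher was Mmp9 (0.81, SE 0.12), encoding gelatinase B, which osteoclasts also make and which stood at 156 to 325 CPM in all libraries. Without WT replicate 3, 13 of 19 were called lower and 2 higher. The count of 10 called in either direction was 4 without WT replicate 1 or homo replicate 1, 6 without het replicate 1, het replicate 3 or homo replicate 2, and 3 by limma-voom. In homo against WT 0 of 19 were called, with 6 of 19 at an unadjusted p under 0.05, where 3.45% of all genes were. The median of the 19 was -1.68 there, and without WT replicate 3 that median was 0.01.

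Of 12 genes of myeloid precursors, 3 were called lower in number 1 and 0 higher, against 7 without WT replicate 2 and 1 without WT replicate 1, het replicate 1, het replicate 3 or any homo library. They were Ms4a3, a marker of granulocyte and monocyte progenitors, at -2.54 (SE 0.87), Plac8 at -1.50 (SE 0.43) and Clec12a at -0.70 (SE 0.11). Cd63, a granule membrane protein gene of many cell types, was at -0.44 (SE 0.12), which is within 1.5-fold. Of 8 regulators of granulocyte formation 0 were called by edgeR, with 4 at an unadjusted p under 0.05 (as 42.6% of all genes were in this contrast) and a median of 0.15, and 1 was called by DESeq2 and 0 by limma-voom. Without WT replicate 2 or WT replicate 3 the edgeR count was 2. Runx1 was at 0.31 (SE 0.12), Myb at 0.23 (SE 0.06), Csf3r, the receptor for granulocyte colony-stimulating factor, at -1.54 (SE 0.67) and Cebpa at 0.14 (SE 0.10). Cebpe, needed for specific granule formation, and Gfi1, a repressor needed for neutrophil development, were named after their values were seen and stood at -1.63 (SE 0.72; edgeR adjusted p 0.112) and -1.23 (SE 0.46; edgeR adjusted p 0.0735). Of 7 genes for granule processing, storage and protease inhibition 0 were called by edgeR, DESeq2 and limma-voom, with 2 at an unadjusted p under 0.05 by edgeR, and edgeR called 2 without WT replicate 3 and 1 without WT replicate 2. Ctsc, whose product activates the granule proteases, was at -0.41 (SE 0.18), and Srgn, encoding the granule proteoglycan serglycin, at -0.83 (SE 0.59).

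Markers of other marrow and bone cells were read beside the granule genes. Over all genes, 3.52% were called lower in number 1 and 5.42% higher. Of 8 eosinophil, basophil and mast cell genes, 6 were called lower in number 1 and 0 higher (5 and 0 without WT replicate 3). Prg2, encoding eosinophil major basic protein, stood at 0.227 to 0.331 CPM in number 1 and at 4.51 to 20.2 in the others (log2 fold change -5.43, SE 0.69), and Ear1, with at most 1 count in any library of number 1, was at least 13.7-fold lower there, with the floor set at 3 counts per library. Epx, the eosinophil peroxidase gene, was at -3.41 (SE 0.61). Of 11 genes of B-cell precursors, 6 were called lower and 0 higher (3 called without het replicate 1 and 7 without WT replicate 3). Among the 6 were Rag1 (-2.50, SE 0.33), Cd79b (-1.85, SE 0.27) and Dntt (-1.51, SE 0.42). Of 12 monocyte and macrophage genes, 5 were called lower and 0 higher (3 called without WT replicate 1 or het replicate 1 and 2 without homo replicate 1). Without WT replicate 3, 5 were called lower and 1 higher. With all libraries, Lyz2, encoding lysozyme, was at -1.40 (SE 0.34) and Ly6c2 at -2.56 (SE 0.59), while Cd68 was at 0.79 (SE 0.27) and Csf1r at 0.16 (SE 0.16). By sign of the fitted fold change, 8 of the 12 were lower in number 1 and 4 higher.

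Red cell precursors were read in the same way, from 8 of 14 listed genes. The globin genes Hbb-bs, Hbb-bt, Hba-a1 and Hba-a2, and Epb42 and Ahsp, were not tested. Of 8 erythroid genes tested 0 were called by edgeR in this contrast, with 0 at an unadjusted p under 0.05 and 0 called by DESeq2 and limma-voom (1 by edgeR without WT replicate 2), and their summed level was 102 to 115 CPM in number 1 and 51.9 to 132 in the others, the lowest being WT replicate 2. Alas2, the heme synthesis enzyme of red cells, had r = 0.409 with Ngp over 9 libraries (exact permutation p = 0.27, adjusted 0.315; rho = 0.533, p = 0.148, adjusted 0.172), which was 0.785 without the 2 libraries farthest from the median of Ngp (exact permutation p = 0.0155, adjusted 0.0271) and 0.560 within numbers 2 and 3 (exact permutation p = 0.307, adjusted 0.43). Vpreb1, of the pre-B-cell receptor, had r = -0.125 with Ngp (exact permutation p = 0.748, adjusted 0.748; rho = 0, p = 1). Of 8 megakaryocyte and platelet genes 0 were called by edgeR (1 without WT replicate 3), with 2 at an unadjusted p under 0.05, as 42.6% of all genes were.

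Bone cell genes moved in both directions in this contrast, where 3.52% of all genes were called lower in number 1 and 5.42% higher. Of 9 osteoblast and osteocyte genes 3 were called lower in number 1 and 1 higher: the osteocyte genes Mepe (-1.68, SE 0.11) and Phex (-0.89, SE 0.10) and the osteopontin gene Spp1 (-0.69, SE 0.07) against Alpl (0.79, SE 0.08), encoding alkaline phosphatase. Ibsp, encoding bone sialoprotein, had r = -0.721 with Ngp (exact permutation p = 0.0278, adjusted 0.0389; rho = -0.733, p = 0.0311, adjusted 0.0436), but -0.674 without the 2 farthest libraries (exact permutation p = 0.101, adjusted 0.118) and -0.335 within numbers 2 and 3 (exact permutation p = 0.496, adjusted 0.496), so the relation did not hold within these numbers. Of 8 osteoclast genes 2 were called higher (Mmp9 and Oscar) and 0 lower, and without WT replicate 3 it was 2 higher and 1 lower. Of 8 genes of mature olfactory sensory neurons (OSNs), the cells that the tissue is named for, 1 was called (Gng13, 1.32, SE 0.11), and Omp stayed between 1999 and 2388 CPM in all libraries. The part of marrow, blood or bone content of the dissection in the levels of the granule genes was not tested.

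**Figure D4:**
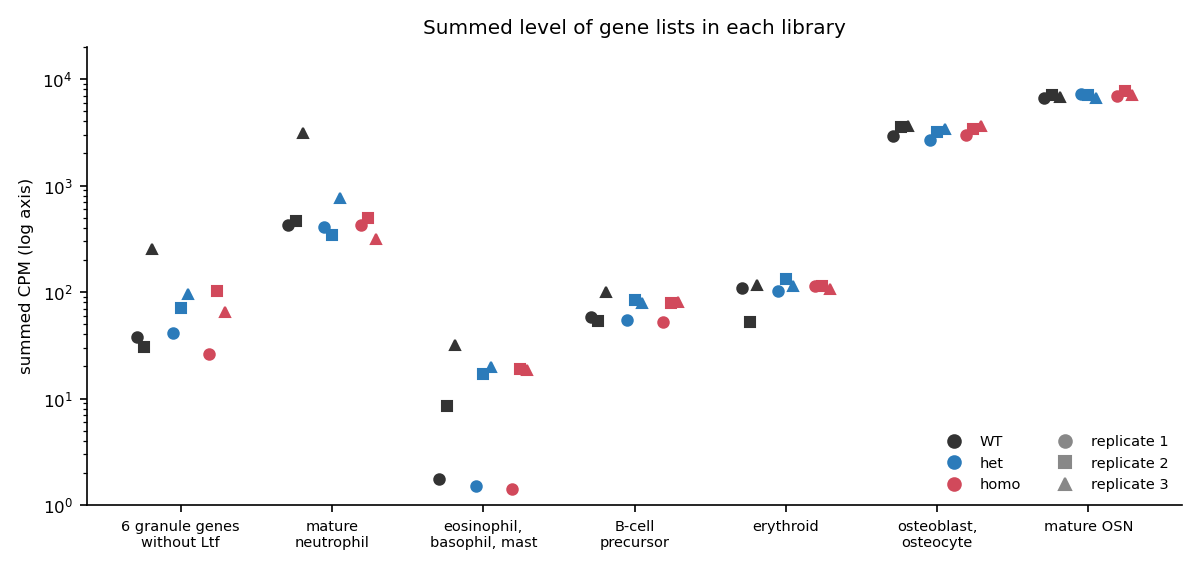
Summed level of 7 gene lists in each library, in CPM on a log axis, with colour for genotype and symbol for replicate number. The 6 granule genes without Ltf run from 26.3 to 256 CPM and mature neutrophil genes from 317 to 3089, both highest in WT replicate 3. The mature neutrophil sum rests largely on Lcn2 in WT replicate 3 (1715 of 3089 CPM). In number 1 it rests largely on Mmp9 (296 to 325 CPM, with sums of 404 to 428). Eosinophil, basophil and mast cell genes fall to 1.41 to 1.77 CPM in number 1, and the erythroid list runs from 51.9 to 132.

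Among 16149 other genes with a mean of at least 1 CPM, the 10 whose course over the 9 libraries was most like the mean standardized level of the 7 genes were Pygl, Slamf9, Arhgap4, Ptpn7, Syk, Adgrg3, Padi4, Rasl11b, Coro1a and Cnr2, with Pearson's r from 0.959 to 0.975. All 10 were highest in WT replicate 3. Without that library their r ranged from 0.870 to 0.944 and 1 of them, Pygl, remained among the closest 10. The closest gene was then the odorant receptor gene Olfr963 (r = 0.967), and Olfr1140, Olfr1028 and Olfr63 were also among the 10. The level of Padi4, encoding a peptidylarginine deiminase, ran from 0.742 to 8.26 CPM and that of Syk, encoding a tyrosine kinase, from 16.9 to 80.0, while Pygl, encoding the liver form of glycogen phosphorylase, ran only from 19.5 to 41.2. With Ltf left out of the mean, a choice made after the data were seen, the closest 10 had r from 0.955 to 0.981. They included Ms4a3, Fcnb, a ficolin gene of myeloid precursors, and the platelet chemokine gene Ppbp. Of these 10, 3 (Adat3, Arhgap4 and Ppbp) remained among the closest 10 without WT replicate 3. Ms4a3 and Fcnb did not, while Cbs and the odorant receptor genes Olfr1140 and Olfr963 came in. Against Ltf alone the closest 10 had r from 0.963 to 0.983 and shared no gene with either other set. They included Pglyrp1, encoding a peptidoglycan recognition protein of granules (10.3 to 59.7 CPM), and Cldn7, encoding an epithelial tight junction protein (24.7 to 49.1 CPM). Both remained among the closest 10 without WT replicate 3, as did 3 of the 10 in all.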

How the data were processed

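RNA-seq of whole MOE was measured in 9 libraries (3 each of WT, het and homo, P14), made from polyA-selected RNA with a directional kit. The authors trimmed reads with Trimmomatic 0.36, aligned them with HISAT2 2.1.0 to mm10 (GRCm38), counted them with featureCounts of Subread 1.6.2 and normalized with DESeq2 1.20.0, and deposited raw counts of 24421 genes and normalized counts of 23129. The annotation release, strand setting and treatment of reads with several alignments are not given in the sources used here. The deposited normalized counts, a signal on each library's size factor, equal raw counts divided by factors of 0.806 to 1.28. Groups came from sample titles.

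Here raw counts of genes with at least 10 counts over 9 libraries (19775 genes) were tested with edgeR 4.0.16 (R 4.3.3, TMM, quasi-likelihood, legacy estimate) on all libraries, after the script was tested on simulated data. Calls needed an adjusted p under 0.05 and a fold above 1.5, with no fold limit in tests of several coefficients. DESeq2 1.42.0, limma 3.58.1 (voom), other scalings, filters and designs and each library left out were alternatives. Named genes were the 7 members, up to 4 genes of highest mean CPM and up to 5 called genes by smallest p in each list, and the 10 genes most like the members. One gene that this rule names is not reported here. The members, the lists and the division by replicate number were chosen with earlier results of these data known. Gene lengths and positions are from GENCODE vM21 and promoters from RefSeq (GRCm38.p6). Permutation tests used Python 3.11.15. Intervals for counting error alone were not computed, and low counts (8 to 13 for Elane and Ctsg in some libraries) limit precision.

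Samples that share a number deviated together in het with WT (r of deviations from group means 0.682, 0.457 and 0.586 over 16156 genes) and in het with homo (0.807, 0.36 and 0.195), but not in all pairs of WT with homo (0.532, 0.32 and -0.0854). By that measure like numbers correlated positively in het with either other genotype, but they were not always the closest. Of 18 combinations of a library with another genotype, the highest correlation was with the same number in 11. Between het and homo that was so for number 1 only. Het replicate 2 with homo replicate 3 (0.583), het replicate 3 with homo replicate 2 (0.527) and WT replicate 2 with homo replicate 3 (0.531) exceeded the pairs of like number.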

Additional observations from a re-analysis of the deposited data

How the results depend on the processing

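In homo vs WT, het vs WT, homo vs het and the test for any genotype difference, 0 of 7 granule genes were called under each of the 19 alternatives run (18 for any difference). Over all genes the counts called ranged from 1 to 6 in homo vs WT (4 as reported, 1 without WT replicate 2 or 3, het replicate 2 or 3, or homo replicate 2 or 3), from 1 to 5 in homo vs het (1) and from 1 to 6 for any difference (1). In the test of replicate number the count of granule genes, 0 as reported, was 1 with DESeq2 size factors, library totals or no filter, 2 by DESeq2 or with no genotype term, and 0 to 5 with 1 library left out; over all genes it was 714 to 6710 (4077 as reported). In number 1 against 2 and 3 it was 1 as reported, 4 by DESeq2, 0 by limma-voom and by edgeR's newer estimate, 3 with no genotype term, and 0 to 6 with 1 library left out, and the count over all genes was 1168 to 2219 (1769). All 7 genes shared WT replicate 3 as their highest library, also in the deposited normalized counts and without any other library (7), and without it 4 shared homo replicate 2. Of 7 gene pairs 5 passed by Pearson's r, and 4 to 5 under the alternatives (without the 2 farthest libraries Ngp with Alas2 passed and Ngp with Ibsp did not), while by Spearman's rho 1 passed within numbers 2 and 3; Ngp with Vpreb1 had r = 0.13 without the 2 farthest libraries.

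The values in this paragraph are log2 fold changes. With the replicate number as a block, Elane was at 0.0293 in homo vs WT, and the block moved no call of a granule gene. By limma-voom Elane was at 0.42 in homo vs WT, and in het vs WT Camp was at 0.13, Elane 0.39, Mpo 0.0653, Prtn3 0.0113 and Ctsg 0.13. In homo vs het, Camp was at -0.13 by limma-voom and -0.0655 with a term for number 1. With 1 library left out, log2 fold changes in homo vs WT ranged from -1.32 to 0.87 for Ngp, -1.12 to 1.42 for Camp, -1.07 to 1.75 for Elane, -1.57 to 0.98 for Mpo, -0.71 to 0.48 for Prtn3, -1.49 to 1.42 for Ctsg and -2.78 to -1.13 for Ltf. In het vs WT they ranged from -1.10 to 0.95, -1.11 to 1.23, -1.13 to 1.69, -1.26 to 1.28, -0.60 to 0.59, -1.22 to 1.77 and -1.55 to -0.30 for the same genes, and in homo vs het from -0.66 to 0.33 for Ngp, -0.48 to 0.67 for Camp, -0.34 to 0.38 for Elane, -0.32 to 0.0263 for Prtn3 and -0.82 to 0.23 for Ctsg. The cause was not tested.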

Other observations

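Secretory epithelium genes, listed after the data were seen and therefore not tested, were read beside Ltf because its product is also an epithelial secretion. Of 9 such genes 6 were highest in WT replicate 3. Pigr, the receptor that carries antibodies across epithelia, stood at 1388 CPM there against 22.3 to 230 in the other 8 libraries, and the mucin gene Muc5b at 2401 against 433 to 675. Bpifb1 stood at 75.7 CPM there and was next highest in the libraries of number 1 (46.3 in WT, 52.1 in het and 55.7 in homo) and lowest in homo replicate 3 (12.4). Dmbt1, a scavenger receptor gene of mucosal glands, was at 305 CPM in WT replicate 3 but at 412, 560 and 500 in the libraries of number 1 and at 60.2 and 86.9 in homo replicates 2 and 3. Bpifa1 (1734 to 2313 CPM) and Epcam (249 to 303) were nearly level. The part of these cells in the level of Ltf was not tested.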
